A study of Mus musculus with 9 samples.

Results

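Dendritic cells treated with tumor exosomes were compared with untreated dendritic cells in 6 of the 9 RNA-seq libraries of the study, namely the 3 CTR and the 3 TDE libraries. The 6 were chosen by their labels, with earlier results of these data known. KEGG maps of lipid metabolism were not described, and genes on them were left out when genes were ranked by fold change. All cells were bone marrow-derived dendritic cells (BMDCs) of wildtype C57BL/6 mice, grown from marrow in medium with GM-CSF (20 ng/ml). The labels give a culture of 6 days, and the study's methods 1 day more. CTR BMDCs received no exosomes. TDE-treated BMDCs received exosomes of tumor cells for 24 h, and the labels do not name the tumor cell line. Another group of 3 libraries, treated with exosomes of NIH 3T3 fibroblasts (NE), entered the model to estimate the spread between libraries, and its levels are given beside a few genes. The labels do not say whether the libraries of a group came from separate mice or cultures, so p-values measure only the spread between these libraries.

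Exosomes are small vesicles that carry proteins, RNA and lipids from one cell to another. Dendritic cells sense danger through Toll-like and related receptors, whose signals run through NF-kB, AP-1 and MAP kinases to cytokine and chemokine genes, and they present antigen on MHC molecules together with costimulatory ligands that T cells need. A GM-CSF culture of marrow holds a mixture of dendritic cells, macrophages and remaining granulocytes, and bulk RNA-seq reads all of them together. For every gene below, fewer cells of a type and less RNA per cell cannot be told apart.

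Each library held between 17469782 and 21092943 estimated reads on genes. Levels are given as CPM, TMM-normalised read counts scaled to libraries of 1000000 reads, in the order of replicates 1, 2 and 3. A level of 3 reads, taken as the limit of detection (counting error only), came to at most 0.19 CPM in any library. CTR replicate 1 (CTR_1) stood apart from the other 8 libraries. Its correlation with them was between 0.827 and 0.900, against at least 0.941 among the others, and its TMM factor, the correction for composition, was 0.751. Genes with short transcripts had high levels in CTR_1 (Spearman rho between gene length and the ratio of CTR_1 to CTR replicates 2 and 3, -0.525 across 14459 genes, which are not independent replicates). Counts over the gene lists are therefore given also without CTR_1, and so are the log2 fold changes of the genes that it moved most. Numbers in parentheses after a gene are log2 fold changes of TDE over CTR with all libraries unless stated otherwise.

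Markers of dendritic cells were present in all 6 libraries, among them Itgax (CD11c, 138 to 158 CPM in CTR, 107 to 115 in TDE) and Zbtb46 (15.7 to 19.9 and 13.7 to 16.05 CPM). Cd209a was at or under 3 reads everywhere. Macrophage genes were present as well (Csf1r, 1371 to 2071 and 1969.5 to 2094 CPM). Only 2 of 10 epithelial or tumor cell markers passed the filter on low counts, and the summed level of the 10 was 8.73 to 11.5 CPM in CTR and 4.91 to 7.73 CPM in TDE, with Cldn4 and Esrp1 at 0 in all libraries. Fibroblast markers were low, 6.46 to 7.21 CPM in CTR and 10.4 to 11.2 CPM in TDE over 9 genes, with Pdgfra at or under 3 reads everywhere. Among the 6 tested fibroblast genes, Dcn (3.23) and Pdgfrb (0.95) rose, and 2 were higher and 1 lower without CTR_1. Erythroid markers summed to 0.807 to 11.3 CPM in CTR and at most 1.67 CPM in TDE, and the 1 tested gene of that list was not called.

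After 24 h with tumor exosomes, 1137 of 15028 tested genes (7.57%) were higher and 1404 (9.34%) were lower than in CTR BMDCs by edgeR's quasi-likelihood test at an adjusted p under 0.05, 2541 (16.9%) in all. The groups did not overlap for 6617 genes (44.0%). Without CTR_1, 2503 of 15301 genes (16.4%) were higher and 2760 (18.0%) were lower. Of the 2541 genes called with all libraries, 2531 were called in the same direction without CTR_1 and 10 were not called. Another 2732 genes passed only without CTR_1. Counts over gene lists below stand against these shares of all genes. They are 7.57% higher and 9.34% lower with all libraries, and 16.4% and 18.0% without CTR_1. The median log2 fold change over all tested genes was -0.055, and -0.021 without CTR_1.

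**Figure D1:**
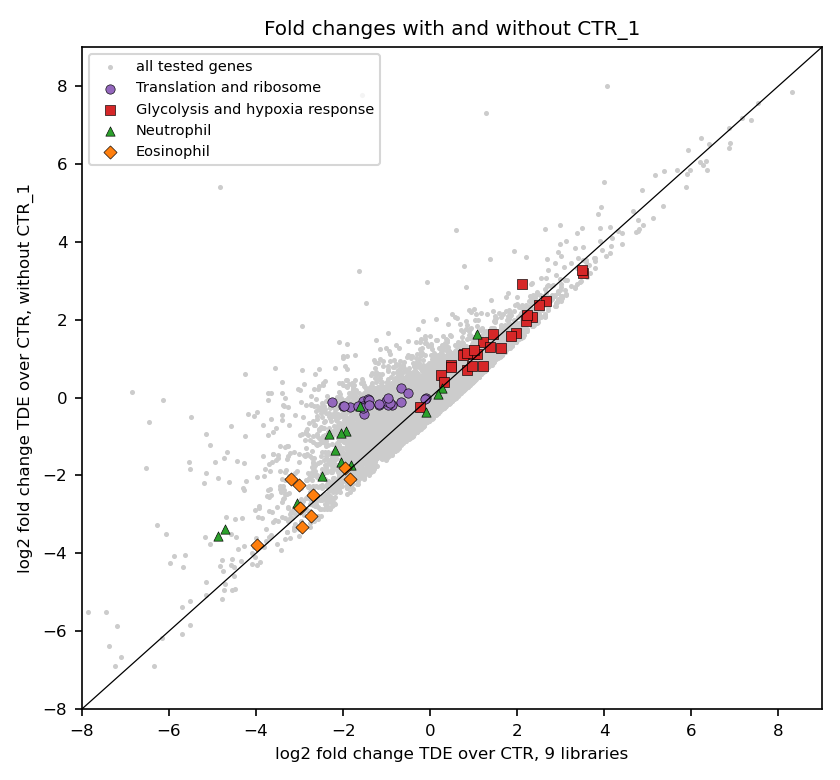
Log2 fold change of TDE over CTR for each tested gene, fitted with all 9 libraries (horizontal axis) and without CTR_1 (vertical axis), with 4 gene lists in colour and a line of equality. The ribosomal genes lie left of the line, with a median of -1.40 with all libraries and -0.17 without CTR_1, while the glycolysis and hypoxia genes and the eosinophil markers stay near it.

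The genes with the largest changes were ranked among those with a symbol that were called with and without CTR_1. They also had a mean of at least 10 CPM in the higher group and no overlap of groups, which was thus part of the choice. Among these, Nos2 rose most, which encodes the inducible nitric oxide synthase of activated macrophages and dendritic cells (chromosome 11, 78920787 to 78960254, plus strand, in the GENCODE annotation of GRCm38 matched by gene ID). It was at 0.19, 1.54 and 1.56 CPM in CTR and at 366, 345 and 374 CPM in TDE. It was low in every CTR library and high in every TDE library, without overlap (log2 fold change 8.32, SE 0.72, adjusted p = 0.000337, and 7.85 without CTR_1). The NE libraries lay with CTR, at 0.531, 0.0542 and 0.448 CPM. Lox, lysyl oxidase, which crosslinks collagen, was at 2.34, 4.70 and 5.90 CPM in CTR and 367, 302 and 335 CPM in TDE. All TDE libraries were far above all CTR libraries (log2 fold change 6.27, SE 0.36, adjusted p = 6.98e-05). Socs3, the feedback inhibitor of Jak-STAT signals from IL-6 family cytokines (chromosome 11, 117966079 to 117970047), was at 18.5, 22.8 and 21.5 CPM in CTR and 385, 379 and 371 CPM in TDE. Its libraries were tight in both groups and rose 18.1-fold (log2 fold change 4.17, SE 0.15, adjusted p = 1.77e-05).

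Saa3, an acute-phase serum amyloid A of macrophages, was at 1354, 223 and 183 CPM in CTR and 9485, 9613 and 9116 CPM in TDE. CTR_1 was the highest of the CTR libraries and still lay far below the TDE libraries, so that the log2 fold change was 4.0 (SE 0.78, adjusted p = 0.0109) with it and 5.52 without it. The other genes among the 15 with the largest rises were Draxin (7.37), U90926 (6.87), Zfp811 (6.85), the activating myeloid receptor gene Cd300e (6.34), the dicarboxylate carrier gene Slc13a3 (6.22), Raver2 (6.20), Susd2 (5.97), the incretin receptor gene Gipr (5.67), Il12a (5.12), the formyl peptide receptor gene Fpr3 (4.41) and Gpr31b (4.31). Most of them were scarcely read in CTR. Cd300e, for example, was at 0.254 to 0.555 CPM in CTR and 35.1 to 40.4 CPM in TDE.

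Among called genes, those that gained most CPM, a quantity that also grows with transcript length, were Saa3, Adgre1, Aldoa, Marco, Cybb and Serp1. Adgre1 (F4/80), an adhesion receptor used to mark macrophages, was at 206, 447 and 480.0 CPM in CTR and 2261, 2114 and 2312 CPM in TDE. Every TDE library was above every CTR library, by a log2 fold change of 2.56 (SE 0.30, adjusted p = 0.0013). Marco, a scavenger receptor for particles and bacteria, was at 264, 74.6 and 76.7 CPM in CTR and 1534, 1535 and 1592 CPM in TDE, again without overlap (log2 fold change 3.49, adjusted p = 0.00338, and 4.35 without CTR_1). Cybb, the catalytic subunit of the phagocyte oxidase, rose less (log2 fold change 0.74, adjusted p = 0.0341), and its call was lost when any 1 TDE library was left out (adjusted p = 0.091 to 0.119).

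**Figure D2:**
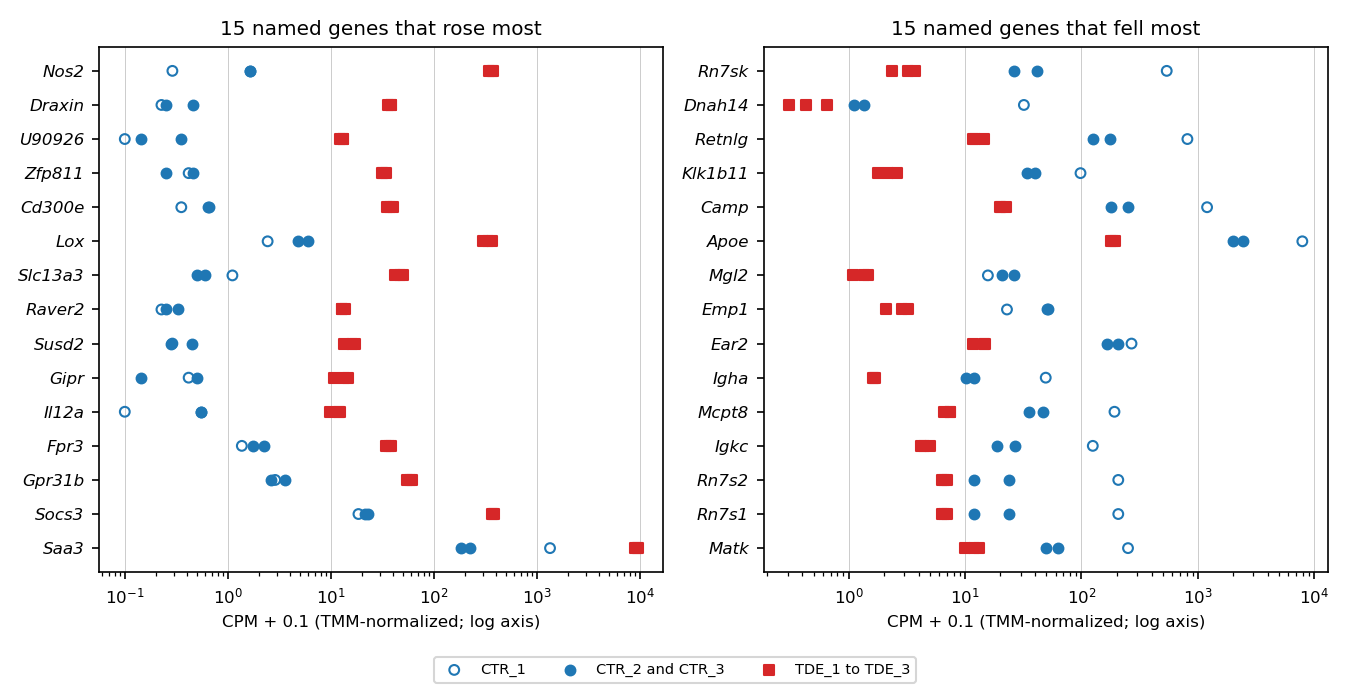
Level in each library, as CPM plus 0.1 on a log axis, of the 15 named genes that rose most (left) and the 15 that fell most (right). Open circles are CTR_1, filled circles CTR_2 and CTR_3 and squares the TDE libraries, and genes were chosen among those whose TDE and CTR libraries do not overlap. CTR_1 lies above the other CTR libraries for most of the genes that fell, as for Camp, shown at 1203, 251 and 178 CPM in CTR replicates 1, 2 and 3.

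The list of arginine, nitric oxide and itaconate genes holds Nos2. Of 11 tested members of that list, 4 were called higher and 0 lower, and without CTR_1 7 and 1, with a median log2 fold change of 0.75. The count of lower members was 1 at an unadjusted p under 0.05 and 1 with DESeq2. Slc7a2, the arginine transporter CAT2, was at 19.1, 66.2 and 92.98 CPM in CTR and 506, 461 and 488 CPM in TDE (log2 fold change 3.03, adjusted p = 0.00608). Acod1, which makes itaconate, was at 31.8, 34.6 and 41.6 CPM and 191, 168 and 195 CPM (log2 fold change 2.36, adjusted p = 8.72e-05). Arg1, the arginase that competes with nitric oxide synthase for its substrate, rose too, from 258, 479 and 462 CPM to 948, 988 and 943 CPM. TDE lay above CTR in all 3 libraries of each of these genes (Arg1 log2 fold change 1.26, SE 0.23, adjusted p = 0.00781). For Arg1 the NE libraries were below CTR_2 and CTR_3, at 209, 214 and 216 CPM. Arg2 and Asl passed only without CTR_1, Arg2 upward (1.02) and Asl downward (-0.43). Ido1, which breaks down tryptophan, was at 0.555 to 0.824 CPM in CTR and 1.16 to 1.25 CPM in TDE, and its difference was not called.

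Most inflammatory cytokines rose. Of 13 tested members, 9 were called higher and 1 lower, and 11 and 1 without CTR_1, with a median log2 fold change of 1.37 against -0.055 over all genes. Il1b, the pyrogenic cytokine of the inflammasome pathway, was at 213, 142 and 127 CPM in CTR and 886, 875 and 888 CPM in TDE. The 3 TDE libraries were almost equal and all above CTR (log2 fold change 2.46, SE 0.22, adjusted p = 0.000378). Il12a, the p35 subunit of IL-12, rose from 0, 0.452 and 0.454 CPM to 12.1, 9.66 and 12.02 CPM. Il12b, the p40 subunit that IL-12 shares with IL-23, was at 118, 116 and 115 CPM in CTR and 191, 215 and 196 CPM in TDE, a much smaller log2 fold change (0.79, adjusted p = 0.0028).

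Il1a (2.11), Il6 (2.26), Tnfsf9 (4-1BB ligand, 2.39), Tnfsf15 (3.0), Lif (1.37) and Osm (1.06) rose as well, Il6 only to 10.8 to 12.1 CPM. Tnf was at 19.01, 11.4 and 10.2 CPM in CTR and 20.4, 21.4 and 21.1 CPM in TDE. CTR_1 lay close to the TDE libraries and the others did not, and Tnf was called only without CTR_1 (log2 fold change 0.95, adjusted p = 0.000166). Csf1, the growth factor of macrophages, was the member that fell (-1.53, adjusted p = 0.00466). Il27 passed only without CTR_1 (0.99). Il23a, Csf3, Ifnb1 and Il33 were under the filter on low counts.

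Among regulatory and growth cytokines, 6 of 15 were higher and 4 lower, and 7 of 16 and 4 without CTR_1. Il10, the main anti-inflammatory cytokine, held 3 reads in the 3 CTR libraries together and 132 in TDE, a ratio of 45.8 after normalization (95% Clopper-Pearson interval 15.3 to 225, counting error only), though its level remained 2.02 to 2.77 CPM. Gdf15, a stress-induced member of the TGF-beta family, was at 10.3, 6.10 and 4.59 CPM in CTR and 97.8, 58.5 and 81.3 CPM in TDE. TDE replicate 2 was the lowest of its group, and the groups did not overlap (log2 fold change 3.51, adjusted p = 0.000521). Tgfb3 (2.70), the angiogenic factor Vegfa (1.62), Il1rn (the IL-1 receptor antagonist, 0.74) and Tgfbi (0.77) rose. Igf1, a growth factor made by resident macrophages, fell from 192 to 234 CPM to 53.9 to 58.3 CPM (log2 fold change -1.87, adjusted p = 0.000144). Spp1 (osteopontin, -1.93), Pdgfa (-1.26) and Pdgfb (-0.99) fell. Tgfb1 was at 402, 259 and 242 CPM in CTR and 227, 221 and 225 CPM in TDE, and its difference was not called with all libraries (log2 fold change -0.42, adjusted p = 0.161) or without CTR_1 (-0.17, adjusted p = 0.0993).

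Chemokines moved in both directions. Of 19 tested, 6 were higher and 6 lower, and 7 and 6 without CTR_1. The CXC chemokines that recruit neutrophils rose. Cxcl3 was at 3.74, 3.97 and 3.88 CPM in CTR and 43.7, 36.1 and 39.96 CPM in TDE, well above CTR in each library (log2 fold change 3.37, SE 0.26, adjusted p = 0.000204). Cxcl5 (4.14), Cxcl1 (2.65) and Cxcl2 (1.92) rose with it, and so did Ccl3 (1.65) and Ppbp (0.73). Those that fell were Ccl24, an eosinophil attractant (5.77, 0.993 and 0.959 CPM in CTR and at or under 3 reads in each TDE library), Ccl17, a ligand of CCR4, Cxcl14 (-2.35), Ccl6 (-1.54), Ccl9 (-1.28) and Cx3cl1 (-1.11). For Ccl17, CTR_1 was at 31.9 CPM against 5.37 and 3.83 CPM in the other CTR libraries and 2.55, 1.64 and 2.09 CPM in TDE. Its log2 fold change was -2.70 with CTR_1 (adjusted p = 0.05) and -1.15 without it, and the call was lost without any 1 TDE library (adjusted p = 0.137 to 0.162). Ccl6 was among the most read chemokine genes, at 1729.7 to 2593 CPM in CTR and 698 to 725 CPM in TDE, without overlap. Cxcl10, an interferon target, was at 2.66 to 2.92 CPM in CTR and 1.36 to 2.07 CPM in TDE and was not called.

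The promoters of Cxcl1, Cxcl2 and Cxcl3, neighbours on chromosome 5 that rose together, are shown because each holds the letters of a kappa B site, the DNA element bound by NF-kB. The site was searched on both strands as GGG, then any pair of bases, then TTTCC, and is in capitals in the 250 bases before each gene's start (RefSeq, GRCm38.p6, 5′ to 3′ on the gene's strand). The windows are chr5:90890995-90891244, chr5:90903649-90903898 and chr5:90785851-90786100, all on the plus strand.
Cxcl1: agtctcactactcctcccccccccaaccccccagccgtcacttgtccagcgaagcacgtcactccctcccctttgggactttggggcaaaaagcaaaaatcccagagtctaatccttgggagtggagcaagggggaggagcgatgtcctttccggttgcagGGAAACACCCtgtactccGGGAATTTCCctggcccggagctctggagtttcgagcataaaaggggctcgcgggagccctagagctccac
Cxcl2: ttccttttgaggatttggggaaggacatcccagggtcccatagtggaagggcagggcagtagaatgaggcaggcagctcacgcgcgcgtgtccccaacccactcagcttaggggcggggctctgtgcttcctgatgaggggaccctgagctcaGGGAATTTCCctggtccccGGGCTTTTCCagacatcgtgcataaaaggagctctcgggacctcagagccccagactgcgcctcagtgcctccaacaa
Cxcl3: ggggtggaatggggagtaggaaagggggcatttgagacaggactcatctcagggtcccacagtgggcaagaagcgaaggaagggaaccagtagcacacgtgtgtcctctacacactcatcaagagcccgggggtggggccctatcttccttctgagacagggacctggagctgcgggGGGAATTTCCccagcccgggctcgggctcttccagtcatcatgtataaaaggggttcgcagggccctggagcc
The Cxcl1 window held 2 such stretches, starting 89 and 71 bases before the gene's start. Cxcl2 held 2, starting 97 and 78 bases before it, and Cxcl3 held 1, starting 73 bases before it. In windows from 250 bases before to 50 bases after the start, 4 of the 12 cytokine and chemokine genes that rose and had a window held the motif (33.3%), as did 6 of all 29 members of both lists with a window (20.7%), the others being Csf1 and Ccl9, which fell, against 2.1% of the 10350 tested genes with a window. A match is a description of letters and does not show binding.

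Among 14 genes of NF-kB subunits, inhibitors and cofactors, 5 were higher and 2 lower, and 5 and 3 without CTR_1. Nfkbiz (IkB-zeta), a nuclear cofactor needed for secondary NF-kB targets such as Il6, was at 15.2, 24.9 and 25.2 CPM in CTR and 168, 163 and 172 CPM in TDE. The groups were far apart (log2 fold change 2.94, SE 0.21, adjusted p = 0.000132). Nfkbia (1.18), Tnfaip3 (A20, 1.2), its partner Tnip1 (1.27) and Bcl3 (0.81) rose, while Nfkbid (-0.87) and Nfkbie (-0.52) fell. The subunit genes Rela (-0.37), Relb (-0.55) and Nfkb2 (-0.10) were not called with all libraries, and Relb passed downward without CTR_1 (-0.28).

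Feedback inhibitors switch off cytokine receptors and MAP kinases after a signal. Of 15 tested, 6 were higher and 1 lower, and 6 and 5 without CTR_1. Besides Socs3, those that rose were Socs1 (2.15), Cish (1.76), the MAP kinase phosphatases Dusp16 (2.68), Dusp4 (2.23) and Dusp1 (0.98), and the member that fell was Dusp5 (-0.85). Dusp16, which acts on JNK and p38, was at 12.2 to 16.4 CPM in CTR and 93.9 to 95.9 CPM in TDE. Without CTR_1, Socs2, Dusp3, Dusp6 and Spred1 also passed, all downward, at log2 fold changes from -0.42 to -0.49.

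Immediate early transcription factors went both ways, 6 of 21 higher and 5 lower, and 9 and 6 without CTR_1. Atf3 (1.18), Ier3 (1.94), Junb (0.66), Maff (1.40) and Nr4a2 (1.37) rose, and Fosl1 (3.59) rose to 2.19 to 3.06 CPM, though most of its exon bases belong also to Ccdc85b. Egr1 (-1.30), Egr2 (-0.93), Nr4a3 (-1.23), Fosb (-1.58) and Myc (-0.57) fell.

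Glycolysis and the response to hypoxia was the list with the highest share of members called higher among the 28 gene lists. Of 28 tested members, 20 were higher and 0 lower with all libraries, at a median log2 fold change of 1.21, and 27 were higher without CTR_1. The count of lower members was 0 at an unadjusted p under 0.05 and 0 with DESeq2. Egln3, a prolyl hydroxylase that HIF-1 itself induces (chromosome 12, 54178981 to 54203860), was at 18.6, 35.7 and 28.3 CPM in CTR and 297, 333 and 298 CPM in TDE. All TDE libraries stood far above CTR (log2 fold change 3.49, SE 0.24, adjusted p = 0.000115), and the NE libraries lay below, at 14.1, 15.3 and 14.9 CPM. Ero1l, an oxidase of disulfide bonds in the endoplasmic reticulum, was at 88.4, 129 and 143 CPM in CTR and 770.1, 759 and 759 CPM in TDE, again without overlap (log2 fold change 2.66, adjusted p = 0.00017).

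The glucose transporter gene Slc2a1 was at 62.6, 78.9 and 72.9 CPM in CTR and 346, 317 and 334 CPM in TDE, and its groups did not overlap (log2 fold change 2.22, adjusted p = 7.21e-05). Along the pathway, hexokinases Hk1 (0.85) and Hk2 (2.20), the regulator Pfkfb3 (1.86), Pfkp (0.96), Aldoa (1.22), Tpi1 (1.0), Pgk1 (1.08), Pgam1 (1.37) and Ldha (1.0) rose, as did the lactate exporter Slc16a3 (0.84) and Pdk1 (1.97), the kinase that holds back pyruvate dehydrogenase. Gapdh was at 2739, 1541 and 1403 CPM in CTR and 2571, 2668 and 2647 CPM in TDE. CTR_1 was as high as TDE and the other CTR libraries were well below it, and Gapdh passed only without CTR_1 (0.83, adjusted p = 0.000176), like Pkm (0.78), Eno1 (0.58), Gpi1 (1.13), Pfkl (1.08), Hk3 (0.39) and Hif1a (0.81). Further hypoxia targets that rose were Bnip3 (2.34), Ndrg1 (2.51), Ankrd37 (2.11, and 2.91 without CTR_1), P4ha1 (1.44), Vegfa and Adm, the last at only 1.42 to 2.49 CPM. Pfkfb4 was the exception, at -0.24 and not called in either fit.

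**Figure D3:**
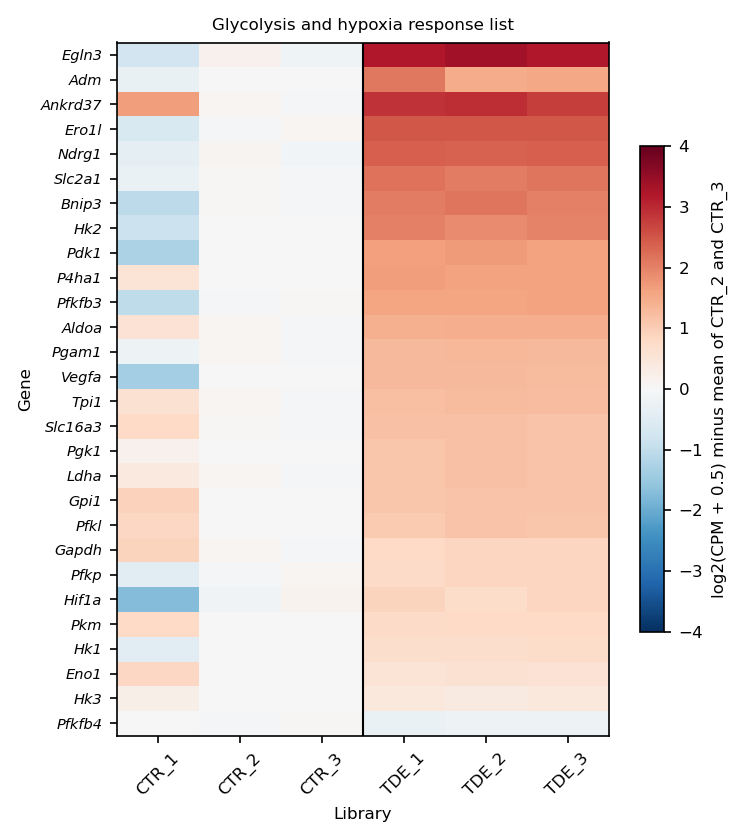
Level of the 28 tested members of the glycolysis and hypoxia list in each CTR and TDE library, as log2(CPM + 0.5) minus the mean of CTR_2 and CTR_3, with red for higher and blue for lower. All members but Pfkfb4 are higher in each TDE library than in CTR_2 and CTR_3, with Egln3 at 3.26 in the fit without CTR_1, and CTR_1 departs in both directions.

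Promoters of 4 of these genes are shown because they hold the core of the hypoxia response element, the sequence bound by HIF. They were the 4 with the largest log2 fold change among members whose window held it in the 250 bases before the start. The core was searched as ACGTG on both strands, where it reads CACGT on the other, and is in capitals. The windows are chr12:54203875-54204124 on the minus strand, chr7:138909507-138909756 on the minus strand, chr4:119108495-119108744 on the plus strand and chr6:82774455-82774704 on the minus strand, again from RefSeq on GRCm38.p6 and printed 5′ to 3′ on the gene's strand.
Egln3: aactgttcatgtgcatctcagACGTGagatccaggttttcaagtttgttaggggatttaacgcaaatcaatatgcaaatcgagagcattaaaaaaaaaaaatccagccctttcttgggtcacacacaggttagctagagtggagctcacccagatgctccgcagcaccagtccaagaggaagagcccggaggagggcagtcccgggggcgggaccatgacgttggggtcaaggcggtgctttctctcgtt
Bnip3: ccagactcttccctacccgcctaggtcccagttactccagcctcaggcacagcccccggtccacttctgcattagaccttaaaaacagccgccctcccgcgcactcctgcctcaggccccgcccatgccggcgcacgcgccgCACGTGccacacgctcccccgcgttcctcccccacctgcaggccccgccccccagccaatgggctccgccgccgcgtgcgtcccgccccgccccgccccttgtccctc
Slc2a1: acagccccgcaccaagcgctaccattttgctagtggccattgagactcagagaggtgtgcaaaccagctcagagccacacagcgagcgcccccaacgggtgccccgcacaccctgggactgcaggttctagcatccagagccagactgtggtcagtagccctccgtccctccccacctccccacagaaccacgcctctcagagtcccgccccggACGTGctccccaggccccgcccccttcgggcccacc
Hk2: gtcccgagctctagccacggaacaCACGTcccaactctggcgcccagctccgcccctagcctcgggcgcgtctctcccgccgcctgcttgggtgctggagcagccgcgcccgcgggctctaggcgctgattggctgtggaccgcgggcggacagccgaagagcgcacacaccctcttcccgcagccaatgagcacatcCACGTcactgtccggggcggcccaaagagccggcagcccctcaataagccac
In the Bnip3 window the letters of both strands overlap in 1 run of capitals, and the Hk2 window holds 2 separate cores. Over windows from 250 bases before to 50 bases after the start, 14 of the 18 list members that rose and had a window held the core (77.8%), and 18 of all 27 members with a window did (66.7%), against 29.0% of the 10350 tested genes with a window. None of the 27 held the kappa B letters given above. Only 2.1% of the tested genes with a window held them, so 0 of 27 does not set the list apart.

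**Figure D4:**
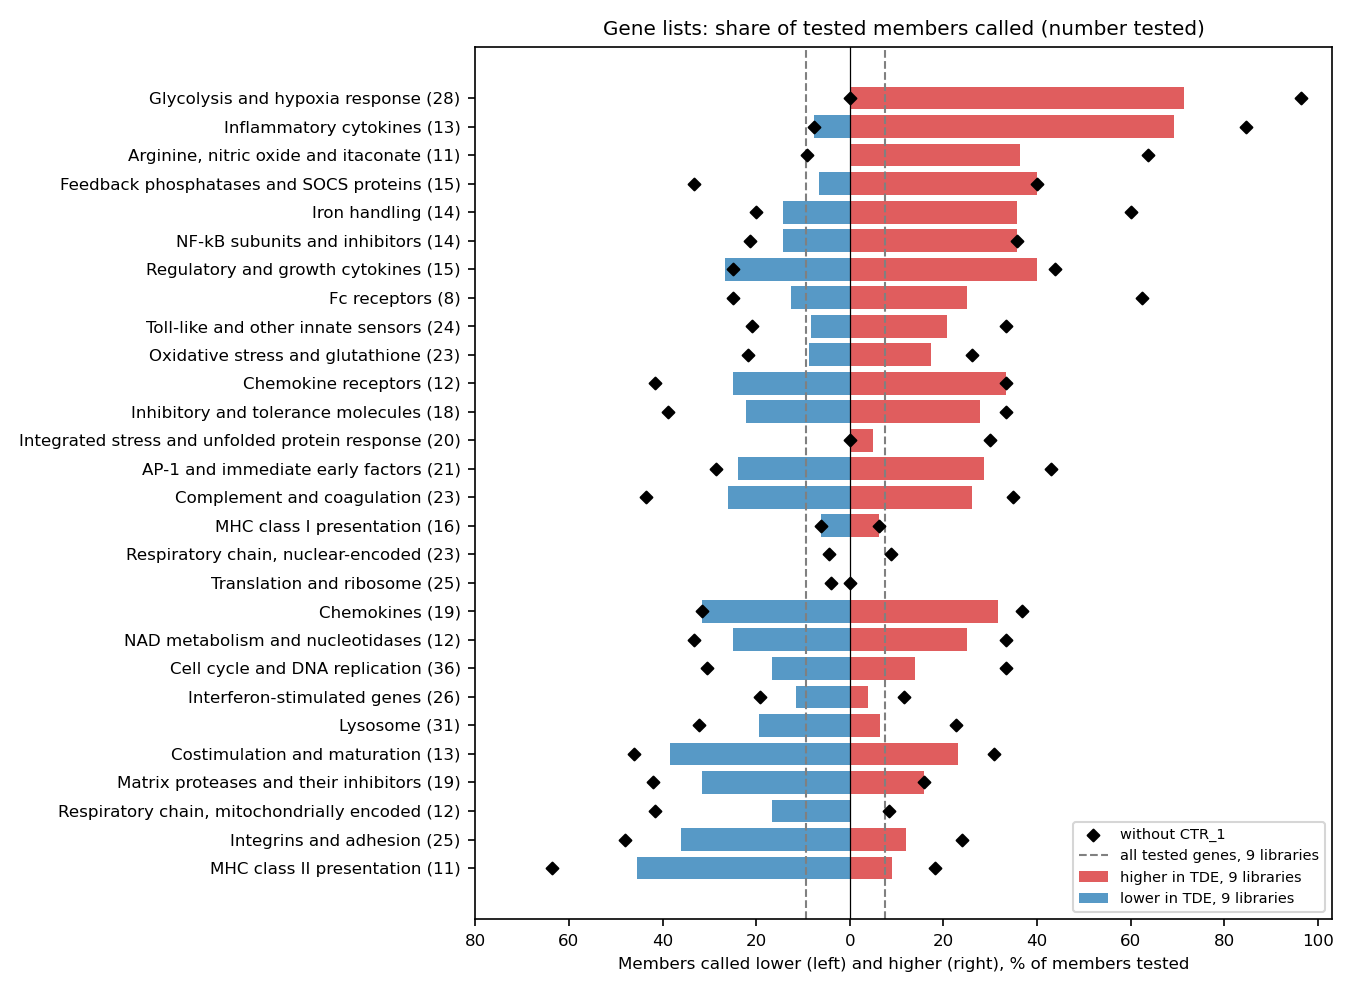
Share of tested members called higher (right) and lower (left) in TDE for each of the 28 gene lists, with the number tested in brackets. Bars are the fit of all 9 libraries, diamonds the fit without CTR_1, and dashed lines the 7.57% and 9.34% of all tested genes called with all libraries. Glycolysis and hypoxia and the inflammatory cytokines extend furthest to the right and MHC class II presentation furthest to the left.

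Several genes of antigen presentation on MHC class II fell. Of 11 tested, 5 were lower and 1 higher with all libraries, and 7 and 2 without CTR_1, at medians of -1.04 and -0.61. Cd74, the invariant chain that guides class II molecules to the endosome, was at 8675, 2632 and 2057 CPM in CTR and 843, 890.3 and 867 CPM in TDE. CTR_1 held the highest level, and TDE was below all CTR libraries (log2 fold change -2.36, adjusted p = 0.0165, and -1.45 without CTR_1). H2-Aa (-1.15 and -0.90 without CTR_1), H2-Ab1 (-1.23 and -0.72) and H2-Eb1 (-1.22 and -0.66) fell in parallel. The calls of Cd74, H2-Ab1 and H2-Eb1 were lost when any 1 TDE library was left out (adjusted p = 0.0698 to 0.0747, 0.12 to 0.135 and 0.137 to 0.156, respectively) and in a fit of the 6 CTR and TDE libraries alone, while without CTR_1 all 3 passed. Ciita, the master regulator of class II genes, passed only without CTR_1 (-0.83, adjusted p = 0.00712). H2-Ob, a chain of the modulator H2-O, rose (1.19, adjusted p = 0.00123). In the class I list, 1 of 16 was higher (Tap1, 0.72) and 1 lower (Tapbpl, -0.69) in both fits, shares below those of all genes.

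Among costimulatory and maturation genes, 5 of 13 were lower and 3 higher, and 6 and 4 without CTR_1. Cd86 was at 85.1, 91.6 and 106 CPM in CTR and 58.2, 58.6 and 60.9 CPM in TDE, lower in each TDE library than in any CTR library (log2 fold change -0.67, SE 0.13, adjusted p = 0.0108). Ccr7, which leads mature dendritic cells to lymph nodes, was at 761, 398 and 339 CPM in CTR and 178, 199.7 and 179.9 CPM in TDE. The TDE libraries lay below CTR with and without CTR_1 (log2 fold changes -1.42 and -1.0, adjusted p = 0.0131 and 0.000176). Without any 1 TDE library, the adjusted p was 0.0549 to 0.0655 for Cd86 and 0.0525 to 0.0658 for Ccr7, above the threshold. Cd83 (-1.07), Fscn1 (-0.70) and Icam1 (-0.66) fell, and the calls of Cd83 and Fscn1 were lost without any 1 TDE library (adjusted p = 0.12 to 0.148 and 0.0731 to 0.117). Cd80 overlapped between groups (40.2, 56.9 and 67.2 CPM and 51.6, 51.6 and 45.2 CPM, log2 fold change -0.15, adjusted p = 0.601). Cd40 was at 26.9, 16.4 and 12.1 CPM in CTR and 26.1, 26.1 and 23.04 CPM in TDE, not called with all libraries (0.44, adjusted p = 0.265) and higher without CTR_1 (0.80, adjusted p = 0.00321). Cd70 rose to 2.05 to 2.98 CPM (3.12, and 4.02 without CTR_1).

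The ligands of the PD-1 receptor, which restrains T cells, stand on this list and on that of inhibitory molecules, and both rose. Cd274 (PD-L1, chromosome 19, 29367455 to 29388095) was at 75.8, 181 and 201 CPM in CTR and 541, 501 and 539.7 CPM in TDE. The TDE libraries were all above CTR (log2 fold change 1.79, SE 0.32, adjusted p = 0.00782), and the NE libraries were at 197, 198 and 178 CPM. Pdcd1lg2 (PD-L2) rose as well (1.0, adjusted p = 0.0255), but not without any 1 of the TDE libraries (adjusted p = 0.0826 to 0.0881). Of 18 inhibitory genes, 5 were higher and 4 lower (27.8% and 22.2%, against 7.57% and 9.34% of all genes), and 6 and 7 without CTR_1. Vsir (VISTA) rose (0.68), and Havcr2 (TIM-3, -2.24), Cd101 (-1.89), Lilrb4a (-1.02) and Entpd1 (CD39, which degrades extracellular ATP, -1.32) fell. Sirpa, whose protein binds CD47, was at 1625, 1173 and 1218 CPM in CTR and 1341, 1264 and 1359 CPM in TDE, with overlap (log2 fold change -0.02, SE 0.16, adjusted p = 0.941). The paired receptor gene Pirb passed only without CTR_1 (0.84).

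Of 24 Toll-like and other sensors of microbes, 5 were higher and 2 lower. These were 20.8% and 8.33%, against 7.57% and 9.34% of all genes, and without CTR_1 8 were higher and 5 lower. Tlr1 (1.44), Tlr6 (0.63), Tlr9 (0.87), the adaptor Ticam1 (1.0) and Clec4e (Mincle, 1.05) rose. Clec7a (Dectin-1), the receptor of fungal beta-glucan, was at 474, 537 and 535 CPM in CTR and 165, 166 and 177 CPM in TDE. All libraries of TDE were below those of CTR (log2 fold change -1.61, SE 0.12, adjusted p = 0.000204). The galactose lectins Clec10a (-1.71) and Mgl2 (-4.10) fell, Mgl2 from 15.6 to 26.1 CPM to 0.998 to 1.36 CPM. Tlr2 (0.19) and Tlr4 (-0.38) were not called with all libraries, and Tlr4 passed downward without CTR_1 (-0.62).

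The scavenger receptor gene Msr1 was at 282, 332 and 363 CPM in CTR and 275, 266 and 266 CPM in TDE, and Cd36 at 222, 477 and 481 CPM and 231, 213 and 219 CPM. Neither was called with all libraries (adjusted p = 0.174 and 0.0716), and both passed downward without CTR_1 (log2 fold changes -0.38 and -1.13, adjusted p = 0.00303 and 1.39e-05). Of 8 Fc receptor genes, Fcgr4 (1.46) and the inhibitory Fcgr2b (1.04) rose, and Fcer1a, the IgE receptor of mast cells and basophils, fell (-2.84), while 5 were higher and 2 lower without CTR_1. Fcer1g, the shared signaling chain, passed only without CTR_1 (1.18).

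Of 26 interferon-stimulated genes, 1 was higher (3.85%), Gbp2 (0.80), and 3 were lower (11.5%), Mx1 (-1.36), Mx2 (-0.92) and Oasl2 (-0.82), against 7.57% and 9.34% of all genes. Without CTR_1, 3 were higher (11.5%) and 5 lower (19.2%), against 16.4% and 18.0% of all genes in that fit. Mx1, an antiviral GTPase, was at 81.0, 175 and 208 CPM in CTR and 57.2, 65.4 and 58.04 CPM in TDE. The highest TDE library was below the lowest CTR library, CTR_1, and the call was lost without any 1 TDE library (adjusted p = 0.0829 to 0.104).

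In the complement and coagulation list, 6 of 23 genes were higher and 6 lower (26.1% each way, against 7.57% and 9.34% of all genes), and 8 and 10 without CTR_1. C3, the central component, was at 1019, 770.0 and 967 CPM in CTR and 2038, 1846 and 2071 CPM in TDE, higher in every TDE library (1.11, adjusted p = 0.00476). Cfb, its partner in the alternative pathway, rose 6.46-fold from 70.5 to 102 CPM to 504 to 559 CPM, though most of its exon bases belong also to Gm20547. C3ar1 (0.74), Procr (1.85) and Tfpi (0.84) were among the others that rose. C1qb (-1.95), F5 (-2.06), Thbd (-1.2), the C5a receptors C5ar1 (-0.89) and C5ar2 (-0.94) and Plaur (-0.79) fell. For C1qb, CTR_1 was at 1253 CPM against 331 and 264 CPM in the other CTR libraries, and without it the log2 fold change was -0.91 (adjusted p = 0.00126). With CTR_1 kept and any 1 TDE library left out, the call was lost (adjusted p = 0.136 to 0.14).

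Of 25 integrin and adhesion genes, 9 were lower and 3 higher, and 12 and 6 without CTR_1. Itgb7 was at 117, 52.5 and 49.2 CPM in CTR and 15.2, 15.9 and 16.2 CPM in TDE, and the groups did not overlap (log2 fold change -2.21, adjusted p = 0.00359). Itgb5 (-1.13), Itgb3 (-1.07), Alcam (-0.75), Vcam1 (-1.12), Cdh1 (-0.74) and Cadm1 (-2.75) fell. Itgal, the alpha chain of LFA-1, rose (1.55), as did Pecam1 (1.57) and Siglec1 (1.52). Itgam (CD11b) was at 366, 1671 and 1951 CPM in CTR and 3386, 3179 and 3431 CPM in TDE. CTR_1 was by far the lowest library, and the call was made only without it (0.87, adjusted p = 0.00192), on exons that are largely shared with Gm49368. Fn1, fibronectin, was at 4205, 6637 and 10456 CPM and 2590.0, 2392 and 2766 CPM and fell (-1.46, adjusted p = 0.0282), a call lost without any 1 TDE library (adjusted p = 0.0956 to 0.109).

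Among matrix proteases and inhibitors, 6 of 19 were lower and 3 higher, and 8 and 3 without CTR_1. Mmp12, the macrophage elastase, was at 1051, 1402 and 1448 CPM in CTR and 446, 431 and 425 CPM in TDE, clearly apart (log2 fold change -1.58, SE 0.16, adjusted p = 0.00062). Mmp13 (-2.43), Mmp25 (-1.22), Mmp9 (-0.84), Plaur and the inhibitor Timp2 (-1.70) fell, and Mmp14 (1.05) and Mmp2 (2.12) were among those that rose.

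Macrophages and dendritic cells take up, store and export iron. Of 14 tested genes, 5 were higher and 2 lower, and 9 of 15 and 3 without CTR_1. Slc40a1 (ferroportin), the iron exporter, was at 29.98, 55.5 and 53.2 CPM in CTR and 10.9, 13.8 and 13.5 CPM in TDE, below CTR in each library (log2 fold change -1.86, adjusted p = 0.00179), and the ferrireductase gene Steap3 fell as well (-1.12). Cp, the ferroxidase ceruloplasmin, rose from 3.30 to 7.87 CPM to 73.9 to 80.9 CPM (3.79), and the importers Slc11a1 (0.61), Slc11a2 (1.39) and Slc39a14 (1.17) rose too. Fth1, ferritin heavy chain, was at 30437, 7545 and 6441 CPM in CTR and 18363, 17619 and 18048 CPM in TDE. The TDE libraries lay between CTR_1 and the other CTR libraries, so that the log2 fold change was 0.28 (adjusted p = 0.721) with CTR_1 and 1.36 (adjusted p = 0.00035) without it. Lcn2, which sequesters bacterial siderophores, was at 1602, 729.8 and 587 CPM in CTR and 2028, 2066 and 2030.1 CPM in TDE and passed only without CTR_1 (1.62, adjusted p = 2.49e-05).

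Hmox1, the heme oxygenase that releases iron from heme, also stands on the list of oxidative stress, of which 4 of 23 were higher and 2 lower, and 6 and 5 without CTR_1. With all libraries these were 17.4% and 8.7%, against 7.57% and 9.34% of all genes. Hmox1 was at 168, 246 and 227 CPM in CTR and 806, 682 and 766 CPM in TDE, without overlap (log2 fold change 1.81, SE 0.18, adjusted p = 0.00062). Sod2, the mitochondrial superoxide dismutase (1.44), Gsr (0.64) and the cystine importer Slc7a11 (0.85) rose, and Srxn1 (-0.62) and Sod3 (-1.32) fell. In the integrated stress and unfolded protein response, 1 of 20 was higher (Xbp1, 0.61), which is 5.0% and below the share of all genes. Without CTR_1, 6 were higher (30.0%, against 16.4% of all genes), among them Atf4 (0.62) and Trib3 (1.11). No member of that list was lower (1 at an unadjusted p under 0.05 by edgeR and 0 with DESeq2). The chaperone gene Hspa5 was at 428 to 494 CPM in CTR and 421 to 447 CPM in TDE and was not called.

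Of 12 genes of NAD and adenosine metabolism, 3 were higher and 3 lower, and 4 and 4 without CTR_1. Cd38, a surface enzyme that consumes NAD (chromosome 5, 43868553 to 43912375), was at 42.7, 49.5 and 53.5 CPM in CTR and 425, 419 and 412 CPM in TDE. The libraries were tight within each group (log2 fold change 3.11, SE 0.14, adjusted p = 3.16e-05), and the NE libraries were at 51.6, 50.4 and 55.6 CPM. Its relative Bst1 (1.15) and Nampt, which rebuilds NAD from nicotinamide (0.90), rose. Ada (-1.40), Adora2b (-0.74) and Entpd1 fell.

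Of 31 lysosomal genes, 6 were lower (19.4%) and 2 higher (6.45%, under the 7.57% of all genes). Without CTR_1, 10 were lower (32.3%) and 7 higher (22.6%), against 18.0% and 16.4% of all genes. The cathepsins Ctsb (-1.21), Ctsl (-1.03), Ctsk (-0.77) and Ctse (-1.87), the tetraspanin Cd63 (-1.62, and -0.92 without CTR_1) and Gusb (-0.66) fell. Ctsb was at 5041, 3874 and 3582 CPM in CTR and 1823, 1753 and 1815 CPM in TDE. All 3 TDE libraries lay far below the lowest CTR library (adjusted p = 0.00235). Acp5, the tartrate-resistant acid phosphatase, rose (1.48, and 2.1 without CTR_1).

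Of 36 cell cycle and replication genes, 5 were higher and 6 lower, and 12 and 11 without CTR_1. Members that act in DNA replication were among those that fell, namely Pcna (-0.98), Mcm2 (-0.76), Mcm5 (-0.71) and Mcm6 (-0.88), together with Ccnd1 (-1.44) and E2f2 (-0.60). Mcm3, Mcm4, Mcm7, Rrm2, Tyms and Tk1 of the same list were not called with all libraries. The same held for Top2a, Ccna2, Ccnb1, Ccnb2, Cdk1, Plk1, Cdc20 and Birc5. Each of these mitotic genes was still higher in every TDE library than in CTR_2 and CTR_3. For Cdc20 and Birc5, CTR_1 lay above the TDE libraries. Mcm3, Mcm4, Mcm7 and Tk1 were lower in every TDE library than in CTR_2 and CTR_3, with CTR_1 below TDE for Mcm4. Rrm2 and Tyms overlapped between TDE and these CTR libraries. Whether replication or mitotic genes shifted as a set was not tested. The mitotic genes Bub1 (1.74), Aurkb (0.59) and Mki67 (0.79) and the inhibitors Cdkn1a (p21, 0.98) and Cdkn1b (p27, 1.10) rose, and the calls of Aurkb, Mki67 and Cdkn1b were lost without any 1 TDE library (adjusted p = 0.0858 to 0.121, 0.106 to 0.134 and 0.119 to 0.132). Pcna was at 119, 120.3 and 106 CPM in CTR and 60.7, 56.5 and 57.6 CPM in TDE, and Cdkn1a at 152, 153 and 135 CPM and 286, 289 and 292 CPM. Neither gene overlapped between groups.

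The 15 genes that fell most included several of granulocytes, described further on, and Apoe, a lipoprotein that macrophages secrete. Apoe went from 7898, 2435 and 2001 CPM in CTR to 181, 195 and 185 CPM in TDE. CTR_1 held the most, and each TDE library was far below each CTR library (log2 fold change -4.46, adjusted p = 0.00146, and -3.58 without CTR_1). Emp1 (-3.99), Klk1b11 (-4.78, and -4.16 without CTR_1), Matk (-3.37 and -2.27), Dnah14 and the immunoglobulin genes Igha (-3.93 and -2.83) and Igkc (-3.67 and -2.36) were also among the 15. Dnah14 was at 31.9 CPM in CTR_1 against 1.26 and 1.01 CPM in the other CTR libraries and 0.333, 0.546 and 0.209 CPM in TDE. Its log2 fold change was -4.94 with CTR_1 and -1.65 without it, and the call was lost without any 1 TDE library (adjusted p = 0.128 to 0.157). So were the small RNA genes Rn7sk (-6.07) and the identical copies Rn7s1 and Rn7s2 (-3.62), which hold 49.0% of exon bases in common with other annotated genes. CTR_1 held Rn7sk at 539.8 CPM against 41.2 and 26.2 CPM in the other CTR libraries, and the log2 fold changes without CTR_1 were -3.50 for Rn7sk and -1.45 for Rn7s1. Among called genes, S100a9, Fn1, Apoe, Cd74, Ctsb and Lgals3 lost most CPM, the first at 13246, 3314 and 2389 CPM in CTR and 1457, 1613 and 1499 CPM in TDE (-2.05). CTR_1 was the highest library by far, and the log2 fold change without it was -0.91. Lgals3 (galectin-3) fell as well (-1.90, and -1.11 without CTR_1).

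All 9 eosinophil markers were lower in TDE, with and without CTR_1, at median log2 fold changes of -2.95 and -2.51. Their summed level was 634 to 1718 CPM in CTR, 648 to 737 CPM in NE and 118 to 146 CPM in TDE, and none was at or under 3 reads in every library. Ear2, an eosinophil ribonuclease, was at 269, 206 and 166 CPM in CTR and 14.7, 11.5 and 14.5 CPM in TDE. Prg2 (major basic protein) was at 1215, 446 and 322 CPM and 79.2, 74.95 and 92.2 CPM. The groups were apart for both (log2 fold changes -3.98 and -3.01, adjusted p = 6.98e-05 and 0.00433), and without CTR_1 the value for Prg2 was -2.23.

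Of 8 tested mast cell and basophil markers, 7 were lower and 8 without CTR_1, among them Mcpt8 (-3.70, and -2.56 without CTR_1), Cpa3 (-2.67), Prss34 (-2.44) and Gata2 (-1.97), and Kit passed only without CTR_1 (-1.55). The 10 markers summed to 209 to 464 CPM in CTR and 67.0 to 72.2 CPM in TDE, with Mcpt4 at or under 3 reads everywhere. Of 15 neutrophil markers, 9 were lower and 0 higher with all libraries, and 11 and 2 without CTR_1, and they summed to 8304 to 31155 CPM in CTR and 5743 to 6079.9 CPM in TDE. The count of 0 higher was 2 with DESeq2 and 2 at an unadjusted p under 0.05. Camp (cathelicidin) was at 1203, 251 and 178 CPM in CTR and 20.2, 22.4 and 19.96 CPM in TDE, and Ltf (lactoferrin) at 2923, 1759 and 1451 CPM and 234, 265 and 239 CPM. Both were low in every TDE library (-4.70 and -3.06, adjusted p = 0.00462 and 0.0004, and -3.37 and -2.72 without CTR_1), as were Retnlg (-4.87, and -3.57 without CTR_1), Ly6g (-2.48), Ngp (-1.82), Mpo (-2.05) and Elane (-2.18, and -1.34 without CTR_1). The G-CSF receptor gene Csf3r (0.27) and the collagenase gene Mmp8 (0.17) were not called with all libraries.

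**Figure D5:**
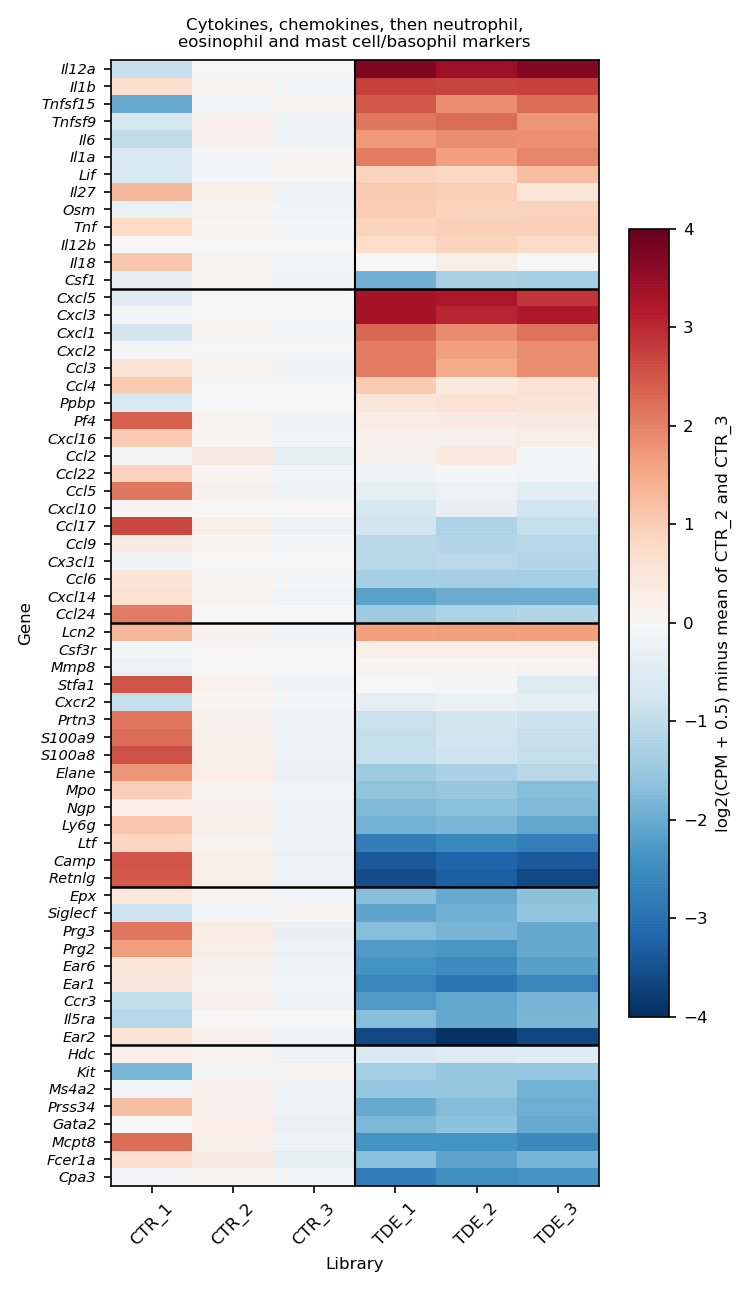
Level of the inflammatory cytokines, the chemokines and the markers of neutrophils, eosinophils and mast cells or basophils (blocks from top to bottom) in each CTR and TDE library, as log2(CPM + 0.5) minus the mean of CTR_2 and CTR_3. Red is higher and blue is lower. Most cytokines are higher and all 9 eosinophil markers are lower in the 3 TDE libraries, and CTR_1 is above the other CTR libraries for several granulocyte markers such as Camp.

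Dendritic cell markers fell in part, 5 of 14 lower (Siglech at -3.08, Dpp4 at -1.34, and Cd74, Ccr7 and H2-Ab1) and 0 higher. The count of 0 higher was 1 with DESeq2 and 2 at an unadjusted p under 0.05, and without CTR_1 8 were lower and 2 higher. Irf8 (0.29) and Zbtb46 (-0.32) were not called with all libraries. The list summed to 3548 to 11623 CPM in CTR and 1981 to 2106 CPM in TDE, with Cd74 as the largest part. Of 15 macrophage and monocyte markers, 1 was higher (Adgre1) and 3 were lower, among them Apoe and C1qb, and 3 were higher and 9 lower without CTR_1. The sums were 37613 to 59128 CPM and 36071 to 37449 CPM, with Lyz2 as the main part. T, B and natural killer cell markers were low throughout, with sums of at most 9.25, 75.2 and 0.887 CPM in CTR and 1.55, 32.7 and 0.418 CPM in TDE. Of those tested, 2 of 3 T cell and 3 of 6 B cell markers were lower (3 of 4 and 3 of 6 without CTR_1, with 1 B cell marker higher), and the 1 natural killer cell marker was not called. Cd3e and Trac were at or under 3 reads everywhere. The granulocyte markers differed between the same libraries as every gene group described here, and their part in those results was not tested.

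Of 12 chemokine receptor genes, 4 were higher, among them Ccrl2 (2.24), Cx3cr1 (0.85) and Ackr3 (0.88), and Cxcr4 (-0.79), Ccr7 and the eosinophil receptor Ccr3 (-2.74) were lower, and 4 and 5 were without CTR_1. Ccrl2, which binds chemerin, was at 27.6, 29.8 and 29.6 CPM in CTR and 159.9, 110.4 and 142 CPM in TDE, above CTR in every library.

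Values for ribosomal genes depended on CTR_1. Of 25 ribosomal and translation genes, 0 were called in either direction by edgeR with all libraries, although the median log2 fold change was -1.40. At an unadjusted p under 0.05 there were 11 lower and 0 higher, DESeq2 called 4 lower, and without CTR_1 edgeR called 1 lower and 0 higher. Rplp2 was at 3711, 373 and 272 CPM in CTR and 291, 316 and 299.8 CPM in TDE. CTR_1 was far above the other 5 libraries, which lay close together, and without it the list's median was -0.17. Of 23 nuclear genes of the respiratory chain, 0 were called by edgeR (2 lower and 1 higher at an unadjusted p under 0.05, 2 lower and 0 higher with DESeq2), and without CTR_1 1 were lower and 2 higher and the median was 0.10. Of 12 mitochondrially encoded genes, 2 were lower (mt-Nd3, -2.55 and -1.05 without CTR_1, and mt-Nd4l, -0.92), and 5 were lower and 1 higher without CTR_1 (0 higher with all libraries by edgeR, 0 at an unadjusted p under 0.05 and 0 with DESeq2).

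Among genes called only without CTR_1 and outside lipid metabolism, the largest rises were those of Slc6a13 (1.99), the uridine phosphorylase gene Upp1 (1.74), Fam162a (1.72), Rhov (1.68) and Lcn2. The largest falls were those of Pakap (-2.1, 98.2% of exon bases shared with Akap2 and Palm2), Slc51a (-1.80), Kit, Pcdh7 (-1.54) and Pgap1 (-1.50). For Upp1 the levels were 29.3, 13.6 and 9.38 CPM in CTR and 38.2, 38.7 and 38.97 CPM in TDE. CTR_1 was closest to the TDE libraries and still below them.

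The same table was read by the KEGG pathways it lists for each gene, against 16.9% of all tested genes called. Cytokine-cytokine receptor interaction had 40.3% of 144 genes called, 34 higher and 24 lower. TNF signaling had 32.1% of 106 (21 higher and 13 lower), Jak-STAT signaling 31.8% of 107 (23 and 11) and chemokine signaling 28.4% of 148 (30 and 12). HIF-1 signaling had 22 of 111 genes higher and 5 lower, glycolysis 17 of 72 and 2, and Toll-like receptor signaling 15 of 83 and 7. Osteoclast differentiation (24 of 118 and 12) and NOD-like receptor signaling (25 of 162 and 9) also had more genes higher than lower. In NF-kappa B (14 of 95 and 12), MAPK (30 of 226 and 26), PI3K-Akt (33 of 254 and 36) and p53 signaling (8 of 70 and 7) both directions were similar in number. These counts are of the fit to all libraries. Without CTR_1, 34.4% of all genes were called. Cytokine-cytokine receptor interaction then had 47 of 149 genes higher and 39 lower, HIF-1 signaling 40 of 113 and 11, and glycolysis 33 of 72 and 5. These maps share many members.

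Other maps had more genes lower than higher. Hematopoietic cell lineage had 32 of 86 genes lower and 8 higher, with a median log2 fold change of -0.67 in both fits. Asthma, a map made up largely of class II, mast cell and eosinophil genes, had 15 of 31 lower and 3 higher (58.1% called), antigen processing and presentation 14 of 69 and 5, and phagosome 29 of 161 and 15. Cell adhesion molecules had 28 lower and 19 higher (46.5% called), Rap1 signaling 28 of 159 and 20, lysosome 19 of 122 and 12, ECM-receptor interaction 10 of 48 and 6, and complement and coagulation 10 of 51 and 9. DNA replication (11.1% called of 36), apoptosis (10.9% of 137), spliceosome (11.7% of 145), ribosome (1.88% of 213), oxidative phosphorylation (3.73% of 134) and proteasome (0% of 47) lay below the share of all genes with all libraries. Without CTR_1, 34.4% of all genes were called. DNA replication (3 of 36 higher and 10 lower) and apoptosis (25 of 137 and 29) then lay above that share. Spliceosome (13 of 146 and 33), ribosome (2 of 219 and 7), oxidative phosphorylation (5 of 134 and 13) and proteasome (4 of 47 and 4) stayed below it. With all libraries again, cell cycle was at 16.9% of 124, equal to the share of all genes. No set test was run on these maps, so the shares describe them without a test of the difference from other genes.

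The deposited counts do not say how reads in overlapping exons were assigned, and their strand is not stated, so that some genes are uncertain. Of the genes named above, those that share at least 10% of exon bases with other annotated genes are Cfb (79.5%), Itgam (68.7%), Fosl1 (57.2%), Lilrb4a (35.9%), Arg2 (28.1%), Ctsl (26.8%), Ankrd37 (26.4%), Pdgfa (26.1%), Ccnd1 (23.4%), Bnip3 (22.3%), Dusp5 (22.1%), Pcdh7 (21.1%), Fam162a (19.8%), Spp1 (18.8%), Nfkb2 (18.1%), Slc51a (17.7%), Pkm (15.3%), Csf1r (15.1%), Mpo (15%), Tnfsf9 (14.9%), Cd274 (14.1%), Dusp3 (12.9%), Ctsb (12.8%), Mcm7 (12.6%), Ccna2 (12.5%), Tgfb3 (12.4%), Icam1 (11.7%), Cish (11.5%), Gpi1 (11.5%), Il1a (11.2%) and Il27 (10.1%), besides Pakap and the Rn7s genes. Reads could also be split among near-identical family members such as those of Saa3, Ear1, Ear2, Klk1b11, Gbp2, Mcpt8 and the immunoglobulin genes.

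Other calls given above with all libraries were also lost whichever 1 TDE library was left out. They were those of Ackr3, Acp5, Ada, Adora2b, Alcam, Cd63, Cdh1, Ctsk, Cx3cr1, Dusp1, Dusp4, Dusp5, Elane, F5, Fosb, Gbp2, Gusb, Igkc, Junb, Lgals3, Lif, Lilrb4a, Mcm2, Myc, Nampt, Nfkbid, Nfkbie, Nr4a2, Oasl2, Pdgfrb, Ppbp, Rn7s1, Rn7s2, Rn7sk, S100a9, Siglec1, Slc11a1, Slc16a3, Slc39a14, Slc7a11, Sod3, Tap1, Tapbpl, Tfpi, Thbd, Tlr6, Tlr9, Tnfaip3, Tnfsf15, Vcam1, Xbp1 and mt-Nd3, with adjusted p from 0.0522 (F5) to 0.16 (mt-Nd3). The calls of Ankrd37, Bcl3, Cadm1, Ccl24, Cd70, Clec10a, Cxcr4, E2f2, Egr2, Mcm5, Mx2, Pdgfa, Srxn1 and mt-Nd4l were lost without some of the TDE libraries and kept without the others.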

How the data were processed

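RNA-seq libraries of BMDCs (3 CTR, 3 NE and 3 TDE) were analysed from the table of raw expected counts that the authors deposited, holding estimated reads per gene that are not normalized. Reads had been aligned with TopHat2 2.1.1, and the submitters' processing notes also name DESeq2 1.24.0 and R 3.3.1. The counting program, genome build and annotation are not given in the sources used here. The authors' group means in the table were not used.

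Counts were rounded and fitted with edgeR 4.0.16 (R 4.3.3) by its quasi-likelihood test, with TMM normalization, filterByExpr over the 3 groups, 1 mean per group over 9 libraries and Benjamini-Hochberg adjustment over 15028 genes at 0.05. SE was derived from the F statistic. The step was tested on simulated data with 200 changed genes, equally many at 2-fold and 4-fold. These data had the same dispersion for all genes and no library apart, unlike the real ones. With the dispersion of the 9 libraries, 9 genes changed 2-fold and 85 changed 4-fold were called. With that of the libraries without CTR_1, 84 and 96 were called. Genes not called with all libraries may thus include changes of about 2-fold. No 2 libraries of the CTR group, or of the TDE group, agreed within sampling noise. The lowest chi-square per degree of freedom was 23.5 between CTR libraries and 2.18 between TDE libraries. Alternatives were DESeq2 1.42.0, limma 3.58.1 voom weights, other scalings, filters and sample sets, a replicate block and leaving out each library. Of 57238 entries, 1702 were assembled transcripts without a gene name, and 17 KEGG maps of lipid metabolism were left out.

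The 6 libraries, the 28 gene lists, 11 marker lists and 29 KEGG maps were chosen with earlier results of these data known. Named genes were the 15 highest and 15 lowest log2 fold changes among genes with a symbol, called with and without CTR_1, with a mean of at least 10 CPM in the higher group and no overlap of groups. To these came up to 4 called members per list and direction, the 6 largest changes of mean CPM each way among called genes, 8 genes the study is concerned with, members that define a list, and the 5 largest changes each way called only without CTR_1. Other list members were named after their values were seen, and some members are not reported here by name. Positions are from GENCODE vM21 and promoter windows (250 bases before to 50 after the start) from RefSeq on GRCm38.p6.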

Additional observations from a re-analysis of the deposited data

How the results depend on the processing

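The count of genes higher in TDE moved from 1137 to 567 in a fit to the 6 CTR and TDE libraries alone, to 614 with the replicate number as a block, to 3878 with limma voom and sample quality weights, and to 642 when changes under 1 on the log2 scale were not counted. The count of lower genes moved from 1404 to 585, 671 and 4008 under the first 3 of these. Leaving out 1 library gave 535 to 2503 higher and 568 to 2760 lower genes. The highest counts came without CTR_1 (2503 and 2760), those without any 1 TDE library were 538, 584 and 535 higher and 571, 593 and 568 lower, and 2440 genes were lower without CTR replicate 3. The cause was not tested. DESeq2, RLE size factors, library totals and both filters kept both counts within 1.5 times.

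None of the named genes that was called changed its direction under an alternative that gave it a value, as all 289 had except 261 with at least 10 counts in every library, 285 with DESeq2 and 288 in the 6-library fit. Calls were lost for 77 genes in the 6-library fit, 61 with the replicate block, 39 with library totals, 36 with no filter, 3 with RLE size factors, 35 without CTR replicate 2, and 77 or 78 without any 1 TDE library. DESeq2 lost none and added 16. Uncalled values near 0 changed sign. Sirpa was at 0.00 with DESeq2, 0.08 with library totals, 0.16 with voom weights (adjusted p = 0.0404, limma), 0.04 with no filter and between -0.10 (without CTR replicate 2) and 0.13 (without CTR_1) when 1 library was left out. Leaving out 1 library, Fth1 lay between -0.07 and 1.36 and Cd80 between -0.34 and 0.03.

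Over all alternatives, 16 to 27 glycolysis and hypoxia genes and 7 to 11 inflammatory cytokines were higher, and 1 to 8 MHC class II genes were lower, with 1 under the replicate block. Same-numbered CTR and TDE libraries deviated with correlations of -0.0348, -0.0562 and 0.0723, and 2 of the 6 correlated best with their own number. Because CTR_1 stood apart within its group, this check cannot tell whether same-numbered libraries share a mouse or culture. At 3 libraries per group and with CTR_1 apart, changes that were not called could still be present, and far more genes were called without CTR_1.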
